A study of Mus musculus with 6 samples.

Results

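The chemokines and chemokine receptors of mouse gliomas were compared between 3 relapsed and 3 control tumours, 1 Affymetrix array per tumour. The members are the genes whose symbol in the platform annotation names a CC, CXC, C or CX3C chemokine, one of their receptors or an atypical chemokine receptor, and which have a probe set listed with a single gene symbol. They number 56 of the 19938 genes tested, 34 ligands and 22 receptors, and were read by 61 probe sets. Where a gene had several probe sets, the brightest on average was used. Probe sets that list several copies of Ccl21 or Ccl27 carry more than 1 symbol and were not used here.

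All 6 tumours arose from implanted glioma cells whose driver was a mutant form of EGFR, the epidermal growth factor receptor. The cells were placed under the skin of the flank in Nu/Nu mice. The relapsed gliomas, numbered 1, 2 and 3, had regrown after the mutant receptor was switched off. The control gliomas, numbered 1, 2 and 4, are labelled only as controls. Some mice had doxycycline at 2 g/L in their drinking water and others had none, and the labels do not say which group had the drug. Tumours were taken at 2 cm3. The labels give no age, sex or further allele for the mice, and do not say whether the implanted cells were 1 line or several. Nu/Nu mice lack a thymus and have few mature T cells, and the flank is not brain, so the cells that chemokines act on differ here from those of an intact brain. Each sample title has its own M number, and only the control titles add an R or L, without a key to either. The labels thus do not say outright whether each tumour came from its own mouse. The p-values weigh the group difference against the spread between these samples within groups.

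Chemokines are small secreted proteins, sorted by the spacing of their conserved cysteines, that bind G protein-coupled receptors and steer the migration of leukocytes. CC ligands act largely on monocytes, macrophages, T cells and eosinophils, and CXC ligands on neutrophils, lymphocytes or stem cells. Atypical receptors bind chemokines without coupling to G proteins and remove them from tissue. In gliomas, chemokines are known for the recruitment of monocytes and microglia.

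Of the 56 members, 8 were higher and 0 lower in relapsed gliomas by limma at a Benjamini-Hochberg adjusted p under 0.05. The genes that rose were the ligands Ccl6, Ccl8, Ccl9, Cxcl12, Cxcl13 and Cxcl16 and the receptors Ccr1 and Ccr2. Over all genes tested, 9.16% were called, 3.69% higher and 5.47% lower. Of the members, 14.3% were called higher. Cxcl14 was the only member lower in relapsed gliomas at an unadjusted p under 0.05 in limma, a cut whose share over all genes was not counted. With a trend and robust setting, eBayes also called 0 members lower, where 891 of all genes were lower. With each array centred on its median, 696 of all genes were higher and 1687 lower, against 735 and 1091 as reported. With all probe sets tested, 871 probe sets were higher and 860 lower. The members called under median centring were the same 8.

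The groups did not overlap, with every relapsed array above every control array, for 20 members, or 35.7%, where 13% of all genes showed that pattern. The opposite pattern held for 2 members, Cxcl14 and Ccr10, or 3.57%, where 17.8% of all genes showed it. The median difference was 0.29 on the log2 scale over the members and -0.02 over all genes. By mean, 46 members were higher and 10 lower in relapsed gliomas, where 45.2% of all genes were higher. Within the members, 28 differed by less than 0.3 in either direction. For 12 members, or 21.4%, both group means lay below 5.66, the median of probe sets listed with no gene, where 25.1% of all genes did so, and 9 of the 12 were receptors. The same value to 6 decimals in at least 2 arrays was found for 13 members, or 23.2%, and for 38.9% of all genes.

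The number called depended on every array. It was 4, 1 and 3 without relapsed 1, 2 or 3, and 0, 3 and 2 without control 1, 2 or 4. The count over all genes dropped as well, to between 264 and 975 of the 1826 called with all arrays. All 8 differences kept their sign in each of these 6 fits. Ccr1 and Ccl9 kept the call in 3 of them and Ccl6 in 2, while Ccl8, Cxcl12, Cxcl13, Cxcl16 and Ccr2 kept it in 1 each.

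**Figure D1:**
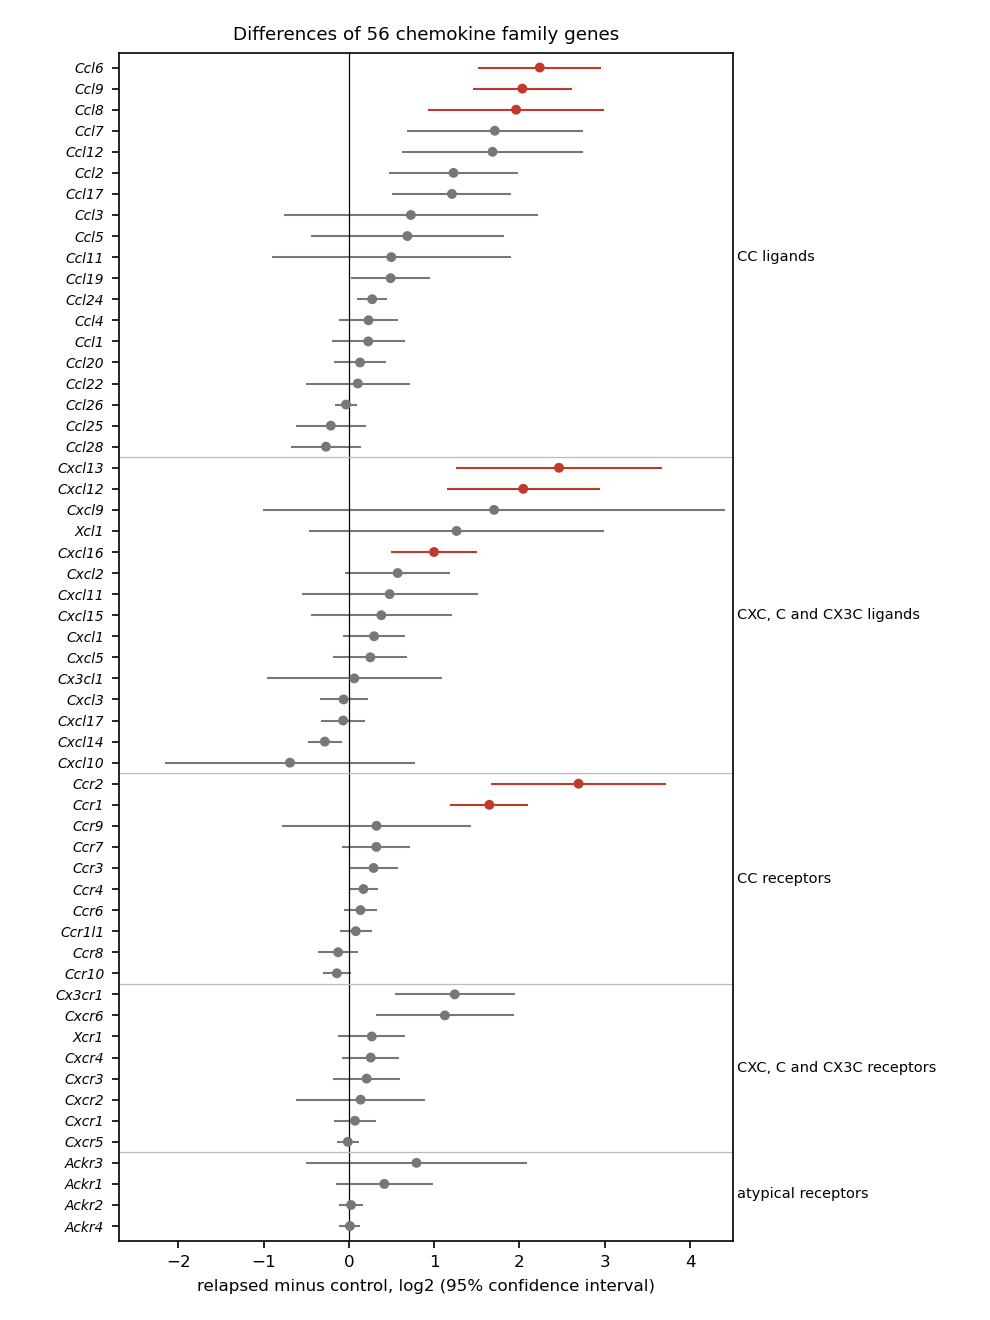
Difference of each of the 56 members, relapsed minus control, in log2 units (points) with the 95% confidence interval from limma (lines), sorted by role. Red marks the 8 genes with an adjusted p under 0.05, from 1.00 for Cxcl16 to 2.69 for Ccr2, and all of them lie right of 0.

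Among the CC receptors, the receptors of monocytes and macrophages stood apart from the rest. Ccr2, the receptor by which inflammatory monocytes leave the bone marrow and enter tissue, had log2 intensities of 10.48, 9.52 and 10.17 in relapsed 1, 2 and 3, against 6.87, 7.09 and 8.13 in control 1, 2 and 4. Every relapsed value was above every control value, and control 4 was the highest of the controls. The difference was 2.69 ± 0.41 (SE, 3 arrays per group), or 6.47-fold, and limma gave an adjusted p of 0.0232. Ccr1, a receptor of myeloid cells, had 8.60, 8.11 and 8.72 in relapsed gliomas, against 6.65, 6.89 and 6.95 in control gliomas. Its groups lay more than 1 log2 unit apart. The difference was 1.65 ± 0.18, or 3.13-fold (adjusted p = 0.0139). Probe sets of closely similar receptors may share signal, which the files do not allow to be checked.

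Of the 4 ligands listed with Ccr2, Ccl8 rose, and Ccl2, Ccl7 and Ccl12 were higher by mean but did not pass. Ccl2 had 10.90, 10.37 and 9.83 in relapsed gliomas, against 8.83, 9.40 and 9.20 in control gliomas. Ccl7 had 11.10, 10.12 and 9.71 in relapsed gliomas, against 8.11, 8.94 and 8.75 in control gliomas. Ccl12, a ligand of this receptor in the mouse, had 9.54, 8.44 and 8.60 in relapsed gliomas, against 6.47, 7.65 and 7.40 in control gliomas. In each of these 3, all relapsed arrays were above all control arrays, relapsed 1 was the highest and control 1 the lowest. The differences were 1.23 ± 0.30 for Ccl2, 1.71 ± 0.41 for Ccl7 and 1.68 ± 0.42 for Ccl12. Their adjusted p-values in limma were 0.0676, 0.0639 and 0.0705. With the dimmer 50% of genes left out they were 0.0305, 0.0270 and 0.0305, past the threshold, and Ccl7 also passed with quantile normalization at 0.0481.

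Ccl6 and Ccl9, chemokines known in rodents that act through Ccr1, had the largest differences among the CC ligands. Ccl6 had 11.60, 11.44 and 10.54 in relapsed gliomas, against 8.88, 8.90 and 9.08 in control gliomas. The difference was 2.24 ± 0.29, or 4.72-fold, and limma gave an adjusted p of 0.0176. Ccl9 had 10.46, 10.32 and 9.70 in relapsed gliomas, against 8.01, 7.98 and 8.40 in control gliomas. It was 2.03 ± 0.23 higher, or 4.09-fold (adjusted p = 0.0145). In both genes the relapsed arrays had the same order, with relapsed 1 highest and relapsed 3 lowest, and control 4 was the highest control.

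Ccl8, listed with the ligands of Ccr2 and known in the mouse to act through Ccr8, had 10.96, 11.16 and 9.66 in relapsed gliomas, against 8.43, 8.84 and 8.63 in control gliomas. Relapsed 3 was the lowest of its group and still above the controls. The difference was 1.96 ± 0.41, or 3.89-fold, and limma gave an adjusted p of 0.0473. With all probe sets tested the adjusted p was 0.0641, and Ccl8 did not pass. The probe set of Ccr8 itself was dim in both groups, at 4.47 ± 0.09 in relapsed and 4.60 ± 0.14 in control gliomas (SD, n = 3 each), and did not pass, with a difference of -0.13 and a 95% interval of -0.36 to 0.11. Ccl17, a ligand of Ccr4 made by dendritic cells and macrophages, had 8.63, 9.02 and 9.53 in relapsed gliomas, against 7.76, 7.58 and 8.22 in control gliomas. Its groups did not overlap, and its difference of 1.21 ± 0.28 had an adjusted p of 0.0578, or 0.0475 with quantile normalization and 0.0260 with the dimmer 50% of genes left out. Ccr4 was dim, at 4.98 ± 0.09 in relapsed and 4.81 ± 0.06 in control gliomas.

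**Figure D2:**
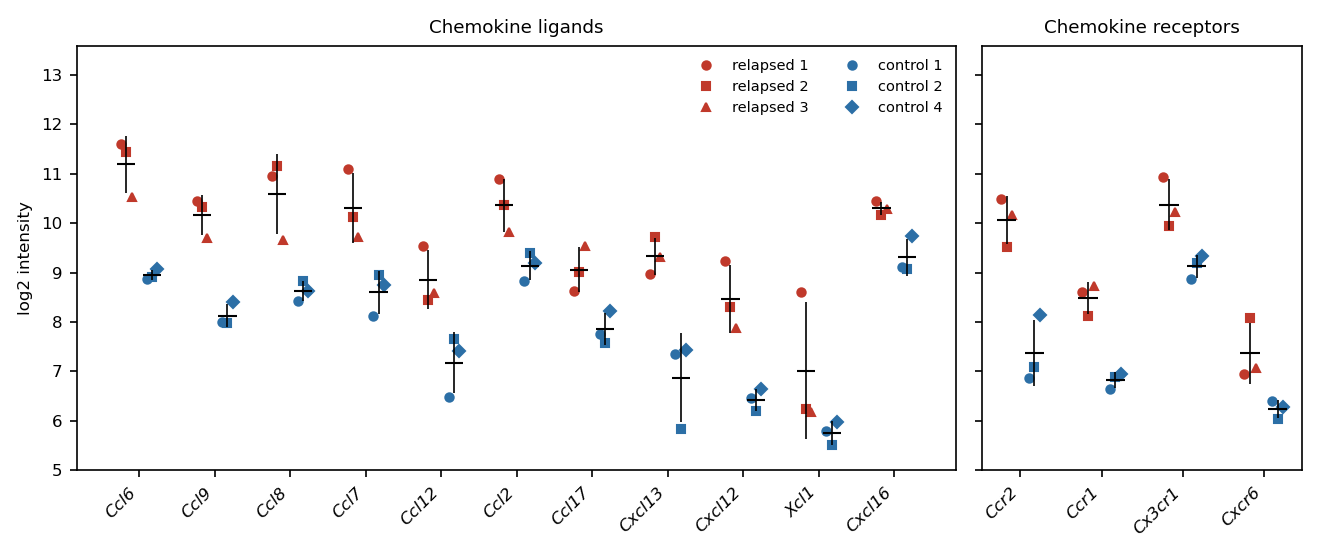
Log2 intensity in each array of the 15 members that were called or whose groups did not overlap with a difference of at least 1. Red points are relapsed and blue points control gliomas, symbols mark the tumour number, and black bars give the mean and SD of 3 arrays; by that choice the red points lie above the blue ones in all 15.

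Many of these genes lie side by side on the chromosome, which allowed neighbours to be compared. Their order came from RefSeq, on assembly GRCm38.p6. In a stretch of chromosome 11 holding Ccl2, Ccl7, Ccl11, Ccl12, Ccl8 and Ccl1, in that order, the differences were 1.23, 1.71, 0.50, 1.68, 1.96 and 0.23, and 4 of 6 genes had groups that did not overlap. Ccl11, which encodes the eosinophil attractant eotaxin, sits within this stretch and had overlapping groups, with 9.0, 8.42 and 6.84 in relapsed gliomas, against 7.85, 7.45 and 7.47 in control gliomas. In another stretch of the same chromosome, the order Ccl5, Ccl9, Ccl6, Ccl3 and Ccl4 had differences of 0.69, 2.03, 2.24, 0.73 and 0.23, and Ccl9 and Ccl6 alone were called. On chromosome 9 the order Ccr9, Cxcr6, Xcr1, Ccr1, Ccr1l1, Ccr3 and Ccr2 had differences of 0.32, 1.13, 0.27, 1.65, 0.08, 0.29 and 2.69, so the 2 called receptors were separated by genes that did not pass. On chromosome 5 the order Cxcl5, Cxcl3, Cxcl15, Cxcl1 and Cxcl2 had differences of 0.25, -0.06, 0.38, 0.29 and 0.57, none of them called.

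**Figure D3:**
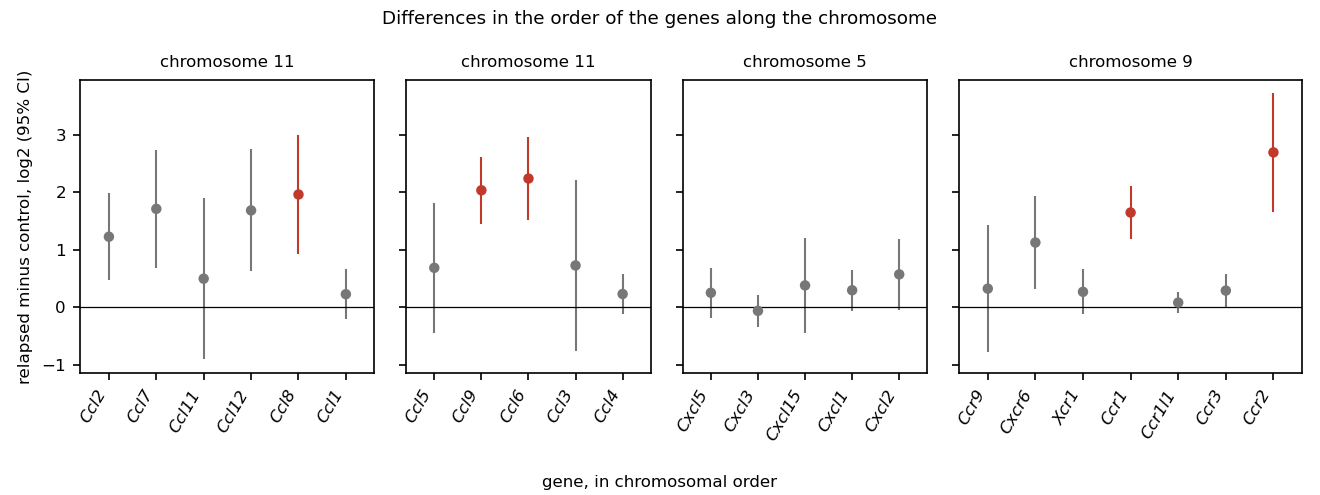
Differences, relapsed minus control in log2 units with 95% confidence intervals, for 4 stretches of neighbouring members in chromosomal order (distances not to scale). Red marks called genes; called genes stand beside uncalled ones on chromosomes 11 and 9, and none of the 5 genes on chromosome 5 was called.

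The promoters of Ccl12, Ccl8, Ccl9 and Ccl6 are shown because they form 2 adjacent pairs of genes whose groups did not overlap, although Ccl12 did not pass the test. The neighbours Ccl2 and Ccl7 had groups that did not overlap either, and their promoters were not used here. They are the 250 bases before the annotated start, 5′ to 3′ on the strand of the gene, from RefSeq on GRCm38.p6, and capitals mark the motif matches described after them.
Ccl12 (chr11:82101595-82101844, plus strand): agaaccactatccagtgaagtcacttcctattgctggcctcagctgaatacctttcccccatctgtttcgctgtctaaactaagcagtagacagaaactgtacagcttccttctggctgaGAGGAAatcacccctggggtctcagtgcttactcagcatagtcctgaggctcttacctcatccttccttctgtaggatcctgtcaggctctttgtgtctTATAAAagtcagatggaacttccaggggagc
Ccl8 (chr11:82114935-82115184, plus strand): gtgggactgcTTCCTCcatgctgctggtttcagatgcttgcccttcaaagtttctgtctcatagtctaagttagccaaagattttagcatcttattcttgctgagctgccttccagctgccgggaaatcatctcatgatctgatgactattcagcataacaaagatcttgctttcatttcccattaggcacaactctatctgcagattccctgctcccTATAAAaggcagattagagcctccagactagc
Ccl9 (chr11:83578637-83578886, minus strand): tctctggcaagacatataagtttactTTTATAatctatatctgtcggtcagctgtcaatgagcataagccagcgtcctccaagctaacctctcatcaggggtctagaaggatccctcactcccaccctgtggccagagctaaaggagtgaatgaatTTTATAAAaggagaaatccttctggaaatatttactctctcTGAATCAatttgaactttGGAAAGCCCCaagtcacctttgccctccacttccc
Ccl6 (chr11:83593088-83593337, minus strand): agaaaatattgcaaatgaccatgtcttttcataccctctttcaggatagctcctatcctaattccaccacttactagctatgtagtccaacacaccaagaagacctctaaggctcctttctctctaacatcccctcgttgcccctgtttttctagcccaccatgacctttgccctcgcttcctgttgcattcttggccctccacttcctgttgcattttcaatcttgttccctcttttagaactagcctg
Motifs were searched on both strands. Ccl12 and Ccl8 each held a TATA element (TATAAA) on the strand of the gene, beginning 31 bases before the start in Ccl12 and 32 in Ccl8, and a PU.1-type core (GAGGAA), which begins 130 bases before the start in Ccl12 and lies 240 to 235 bases before it on the other strand in Ccl8. Ccl9 held a match to the NF-kB motif 35 to 26 bases before the start and an AP-1 element (TGANTCA) 53 to 47 bases before it. Its 3 matches to TATAAA lie farther upstream, and 2 of them overlap on opposite strands. Ccl6 held none of the motifs searched, which also included the interferon response element (GAAANNGAA) and the STAT element (TTCNNNGAA). Of 32841 promoter windows of the same length, 12.4% held TATAAA, 23.3% GAGGAA, 7.25% the NF-kB motif, 6.75% the AP-1 element, 7.13% the interferon response element and 7.02% the STAT element. Promoters of 42 members were listed, in 44 windows, and of these windows 14 held TATAAA, 11 GAGGAA, 11 the NF-kB motif, 4 the AP-1 element, 8 the interferon response element and 4 the STAT element. The interferon element was searched in this short form only after counts with a form longer by a final A, which matched fewer windows, had been seen, and its counts carry no weight here. A match is a description of letters and not of a bound site.

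The remaining CC ligands did not pass. Ccl3 and Ccl5, ligands of receptors on macrophages and T cells, varied widely within groups. Ccl3 had 10.69, 9.69 and 8.61 in relapsed gliomas, against 8.40, 8.81 and 9.61 in control gliomas. Ccl5 had 10.85, 10.28 and 9.32 in relapsed gliomas, against 8.93, 9.56 and 9.91 in control gliomas. In both, relapsed 1 was the highest array and relapsed 3 lay below control 4. Their differences were 0.73 with an interval of -0.76 to 2.21 and 0.69 with an interval of -0.45 to 1.82. Ccl19, which guides dendritic cells and naive T cells to lymph nodes, differed by 0.49 ± 0.19 with an adjusted p of 0.170. Its 5 probe sets read near-identical gene copies and gave 0.49 to 0.57. Its receptor Ccr7 differed by 0.32 ± 0.16 with an adjusted p of 0.274. Ccl25, a ligand of Ccr9, and Ccl28, a mucosal chemokine, were lower by mean, with differences of -0.21 ± 0.17 and -0.27 ± 0.17. Ccl1, Ccl4, Ccl20, Ccl22, Ccl24 and Ccl26 differed by -0.03 to 0.27. The receptors Ccr3, Ccr6, Ccr9, Ccr10 and Ccr1l1 differed by -0.14 to 0.32.

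Cxcl13, which attracts B cells through Cxcr5 and is also made by macrophages, had 8.97, 9.72 and 9.31 in relapsed gliomas, against 7.34, 5.83 and 7.44 in control gliomas. Control 2 was far below the other controls. The difference was 2.46 ± 0.48, or 5.52-fold, and limma gave an adjusted p of 0.0401. It was 1.94 without control 2, where the gene kept the call. With all probe sets tested the adjusted p in limma was 0.0548, and Cxcl13 did not pass. Cxcr5 was dim in every array, at 4.28 ± 0.05 in relapsed and 4.29 ± 0.01 in control gliomas. Of 7 B cell markers measured, 0 were called in limma, 5 were higher by mean and 4 lay below 5.66 in both groups. Cd79b, a chain of the B cell receptor complex, had 8.06, 7.67 and 6.88 in relapsed gliomas, against 6.45, 6.40 and 6.49 in control gliomas. Its groups did not overlap, and its difference of 1.09 ± 0.30 had an adjusted p of 0.0862 in limma. It was the only 1 of the 7 with such groups. Ms4a1, Cd79a and Cr2 were highest in relapsed 2, at 5.72, 5.16 and 5.08, while Pax5 and Blk differed by -0.03 and -0.05. The mean log2 intensity of the 7 markers ranged from 5.27 to 5.87 in relapsed and from 5.21 to 5.26 in control gliomas.

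Cxcl12, the stromal chemokine that retains blood stem cells in bone marrow, had 9.23, 8.31 and 7.88 in relapsed gliomas, against 6.46, 6.19 and 6.64 in control gliomas. All relapsed arrays were more than 1 log2 unit above all control arrays. The difference was 2.04 ± 0.36, or 4.13-fold, and limma gave an adjusted p of 0.0316. Its signalling receptor Cxcr4 had 9.11, 8.85 and 8.89 in relapsed gliomas, against 8.85, 8.79 and 8.45 in control gliomas. That difference of 0.26 had an interval of -0.08 to 0.59 and did not pass. The atypical receptor Ackr3, which removes Cxcl12, had 7.79, 9.10 and 9.51 in relapsed gliomas, against 8.34, 7.39 and 8.31 in control gliomas. Relapsed 1, the array with the highest Cxcl12, had the lowest Ackr3 of its group, and the difference of 0.79 had an interval of -0.50 to 2.08. The other atypical receptors, Ackr1, Ackr2 and Ackr4, differed by 0.01 to 0.41 and did not pass.

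Cxcl16, a membrane-bound chemokine that also serves as a scavenger receptor, had 10.44, 10.18 and 10.29 in relapsed gliomas, against 9.11, 9.08 and 9.74 in control gliomas. The relapsed arrays lay close together, and control 4 was the nearest control. The difference was 1.00 ± 0.20, or 2.00-fold, and limma gave an adjusted p of 0.0422. With all probe sets tested the adjusted p was 0.0583, and Cxcl16 did not pass. Cxcr6, its receptor on T and NK cells, had 6.95, 8.08 and 7.06 in relapsed gliomas, against 6.39, 6.04 and 6.28 in control gliomas. The groups did not overlap, relapsed 2 stood above the others, and the difference of 1.13 ± 0.32 had an adjusted p of 0.0941.

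Cx3cr1, the fractalkine receptor of microglia and patrolling monocytes, had 10.94, 9.95 and 10.22 in relapsed gliomas, against 8.87, 9.19 and 9.33 in control gliomas. The groups did not overlap. The difference was 1.24 ± 0.28 and limma gave an adjusted p of 0.0552, and it was past the threshold with quantile normalization at 0.0424 and with the dimmer 50% of genes left out at 0.0243. Its ligand Cx3cl1 had 9.62, 8.19 and 8.60 in relapsed gliomas, against 8.31, 9.08 and 8.82 in control gliomas. All control values lay within the range of the relapsed values, and the difference of 0.06 had an interval of -0.97 to 1.09.

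The ligands of Cxcr3 are induced by interferon, and their spread within groups was wide. Cxcl9 had 9.45, 11.90 and 8.74 in relapsed gliomas, against 8.28, 6.90 and 9.81 in control gliomas. Cxcl10 had 11.31, 11.00 and 9.67 in relapsed gliomas, against 10.42, 11.87 and 11.77 in control gliomas. Cxcl11 had 8.30, 9.02 and 7.76 in relapsed gliomas, against 7.60, 7.54 and 8.51 in control gliomas. The 3 genes did not order the arrays alike, since control 2 was lowest of all for Cxcl9 and highest of all for Cxcl10. Their differences were 1.70, -0.69 and 0.48, with intervals of -1.01 to 4.41, -2.15 to 0.77 and -0.55 to 1.51. Cxcr3 differed by 0.21 with an interval of -0.19 to 0.60. Intervals this wide do not show that the groups were alike.

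None of the neutrophil-attracting CXC chemokines and their receptors was called, and 3 of these 6 genes lay below 5.66 in both groups. Cxcl1, Cxcl2, Cxcl3 and Cxcl5 differed by 0.29, 0.57, -0.06 and 0.25, and their receptors Cxcr1 and Cxcr2 by 0.07 and 0.14. Of 12 neutrophil markers, 0 were called in limma and 7 lay below 5.66 in both groups, with a list mean of 5.83 to 5.93 in relapsed and 5.48 to 5.65 in control gliomas. Cxcl14, a chemokine of epithelia, brain and fat, ran against most members. It had 9.91, 9.74 and 9.82 in relapsed gliomas, against 10.14, 10.19 and 9.99 in control gliomas. All relapsed values were lower, by a difference of -0.28 ± 0.08 with an adjusted p of 0.0915. Cxcl15 and Cxcl17 differed by 0.38 and -0.07.

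Xcl1, made by NK and CD8 T cells, was set by 1 array. It had 8.61, 6.24 and 6.18 in relapsed gliomas, against 5.78, 5.50 and 5.97 in control gliomas. The difference was 1.26 ± 0.69, with an adjusted p of 0.319 in limma. Without relapsed 1 the difference was 0.46. Ncr1, an activating receptor of NK cells, was also highest in relapsed 1, with 7.49, 5.16 and 5.43 in relapsed gliomas, against 5.01, 4.83 and 5.44 in control gliomas. The mean of 10 NK cell markers was 6.51, 5.95 and 5.62 in relapsed gliomas, against 5.32, 5.11 and 5.59 in control gliomas, with 0 markers called and 2 below 5.66 in both groups. Xcr1, the receptor of Xcl1 on cross-presenting dendritic cells, differed by 0.27 with an interval of -0.12 to 0.66. In relapsed 2, where Cxcl9, Cxcl11, Cxcl13 and Cxcr6 were highest, Cd3g, a chain of the T cell receptor complex, stood at 8.35, against 5.22 to 6.79 in the 5 other arrays. Cd3g is 1 of 9 T cell markers and was named after its values were seen, so it does not stand for the list. The mean of the 9, Cd3g included, was 6.14, 6.50 and 6.04 in relapsed gliomas, against 5.99, 5.92 and 6.25 in control gliomas. Of these markers 0 were called, and 0 had groups that did not overlap. Whether NK or T cells account for any of these values was not tested.

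**Figure D4:**
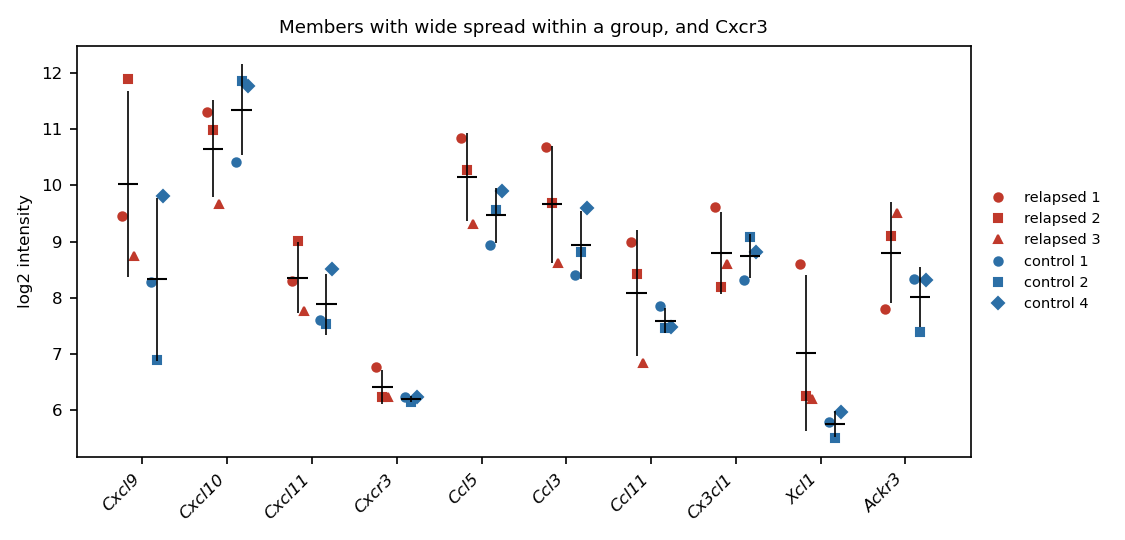
Log2 intensity in each array of 9 members with a wide spread within a group and of Cxcr3, chosen after their values were seen. Red points are relapsed and blue points control gliomas, and black bars give the mean and SD of 3 arrays; Xcl1 is high in relapsed 1, Cxcl9 in relapsed 2, and control 2 is lowest for Cxcl9 and highest for Cxcl10.

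Relapsed gliomas also differed from control gliomas in the markers of cells that make or follow chemokines. Of 18 macrophage markers, 13 rose and 0 fell, with a median difference of 1.41, and the list mean was 10.36 to 10.84 in relapsed and 9.0 to 9.38 in control gliomas. Of 5 monocyte markers, F13a1 and Fn1 rose. The fibroblast list had 10 of 13 genes risen and 0 fallen, with a list mean of 10.54 to 11.19 in relapsed and 9.06 to 9.61 in control gliomas. Of 7 microglia markers, 6 were higher by mean and 5 of these had groups that did not overlap, but 0 passed, among them Tmem119 at 1.07 ± 0.24 (adjusted p = 0.0561 in limma). The median difference was 1.07, and the list mean was 8.40 to 9.25 in relapsed and 7.81 to 8.23 in control gliomas. The seventh, Sall1, which neural progenitors also express, fell by 1.04 on the log2 scale. Among 9 dendritic cell markers 0 were called. Endothelial markers had a list mean of 7.80 to 8.06 in relapsed and 8.14 to 8.38 in control gliomas, with 1 of 10 fallen and 0 risen. Lymphatic endothelial markers had a list mean of 6.69 to 7.01 in relapsed and 7.39 to 7.64 in control gliomas, with 2 of 5 fallen and 0 risen. The genes of this list that fell were Prox1 and Reln, at -1.55 ± 0.25 and -1.93 ± 0.40. Whether these genes read lymphatic cells in glioma tissue was not tested. Flt4 was lower by mean at -0.36, while Lyve1 and Mmrn1 were higher by mean, at 0.20 and 0.36, so the list did not move as 1. Glioma progenitor markers were lower, with 6 of 9 fallen and a list mean of 8.34 to 8.54 in relapsed and 9.88 to 10.53 in control gliomas. In bulk tumour RNA, more cells of a type cannot be told apart from more RNA per cell, and the part of these cells in the chemokine differences was not tested. Markers of other tissues were high in single arrays. Adipocyte markers averaged 9.46 in relapsed 1, keratinocyte markers 8.04 in relapsed 3 and skeletal muscle markers 9.14 in control 2, above the 5 other arrays in each case.

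**Figure D5:**
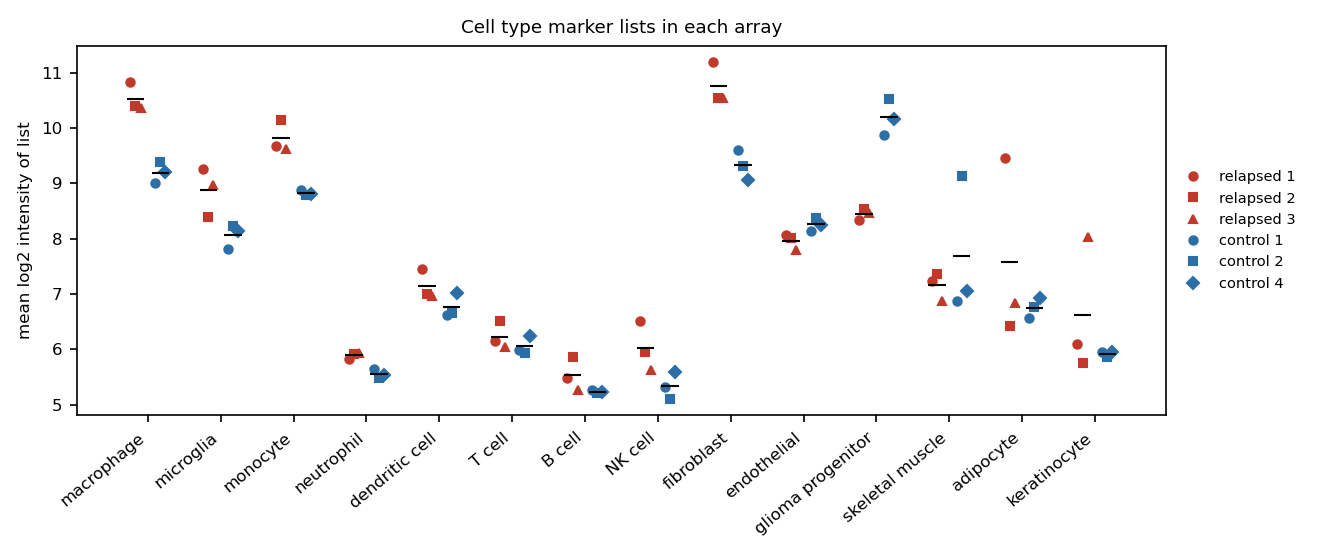
Mean log2 intensity of 14 cell type marker lists in each array, red for relapsed and blue for control gliomas, with black bars at the group mean. The macrophage, microglia, monocyte, neutrophil, B cell, NK cell and fibroblast lists lie higher in all relapsed arrays. For 2 of them the lowest relapsed and highest control values nearly touch, at 5.27 and 5.26 for B cells and 5.62 and 5.59 for NK cells. The endothelial and glioma progenitor lists lie lower, and the 5 other lists overlap between groups.

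Other genes of the pathway were described from lists of the same kind. Of 12 further chemokine family genes, 1 rose and 0 fell, with a median difference of 0.55. That gene was Pf4, which encodes the CXC chemokine platelet factor 4, at 8.35 ± 0.38 in relapsed and 6.67 ± 0.53 in control gliomas (SD, n = 3 each), a difference of 1.68 ± 0.32. Of 27 genes of signal transduction below chemokine receptors, 5 rose and 1 fell, with a median difference of 0.58. Those that rose included Rgs18 and Rgs1, which end G protein signals, at 2.53 ± 0.44 and 2.06 ± 0.37. They also included Pik3cg, the kinase that turns G protein signals into phosphoinositide signals in leukocytes, at 1.29 ± 0.17, and Dock2, an activator of Rac in blood cells, at 1.09 ± 0.20. The gene that fell was Prex1, another activator of Rac, at -0.78 ± 0.14. Gnai2 and Gnb1, G protein subunits present in most cells, differed by -0.15 and -0.10 and did not pass. Of 18 genes that induce chemokines, 0 were called, with a median difference of 0.06. The smallest p-values among these were those of Irf7, an interferon regulatory factor, and Stat6, which acts below interleukin-4, at -1.07 ± 0.29 and 0.68 ± 0.19, with adjusted p of 0.0813 and 0.0880 in limma. Il1b had the largest difference of this list, at 1.20 ± 0.52, and Il6 differed by 0.80 ± 0.25. Neither passed, as limma gave them adjusted p-values of 0.217 and 0.114, and Il6 lay below 5.66 in both groups. Every relapsed array was above every control array for 3 of the 18 genes, Stat6, Il6 and Il1b. It was below for 2, Irf7 and Rela. Tnf and Ifng differed by 0.21 and 0.03.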

How the data were processed

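Total RNA of 3 relapsed and 3 control gliomas (biotin-labelled cRNA from 5 ug, per the labels' protocols) was read on 1 array each. The deposited table holds log2 intensities per probe set, normalized between arrays by the authors. The log2 scale was read from the deposited values, which ran from 1.93 to 14.2 with array medians of 6.58 to 6.68. The submitters' processing notes name affy, while the sources used here do not state its version, the background correction or the summarization. No detection calls or probe levels were used, so the number of arrays limits the precision.

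Of 35556 probe sets, the platform annotation gave 21789 a single symbol, 1621 several and 12146 none. The 19938 genes were fitted with limma 3.58.1 (R 4.3.3; lmFit, eBayes, relapsed against control, two-sided, Benjamini-Hochberg over all genes), with no filter, 4 residual and 1.53 prior degrees of freedom. The fit was tested on simulated data. Intervals are 95% limits from limma, without adjustment. The 27 gene lists had 295 entries, of which 271 were measured, 2 through a synonym. Members, lists and tests were chosen with earlier results of these data known. Named with values were called members, those whose groups did not overlap with a difference of at least 1, the 5 with the highest mean signal, ligands or receptors of these, and up to 4 called genes per pathway list, or the 2 with the smallest p. Other names were chosen after their values were seen. Promoters came from RefSeq (GRCm38.p6). Plots were drawn with matplotlib 3.10.9.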

Additional observations from a re-analysis of the deposited data

How the results depend on the processing

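The count of 8 members higher was 13 with the dimmer 50% of genes left out, 5 with all probe sets tested and 0 to 4 when 1 array was left out. It was 8 with median centring, with the mean of a gene's probe sets and with a trend and robust eBayes, and 11 with quantile normalization. The genes that lost the call with all probe sets tested were Ccl8, Cxcl13 and Cxcl16. The share of all genes called higher moved too, from 3.69% as reported to 8.52% with the dimmer 50% left out and 4.12% with quantile normalization. It was 2.45% of probe sets with all of them tested and 0.602% to 1.91% when 1 array was left out. With median centring, the mean of probe sets and the trend and robust eBayes it was 3.49%, 3.76% and 3.42%. In all of these settings 0 members were called lower, where between 144 and 1687 of all genes or probe sets were. Over all genes, 264 to 975 were called when 1 array was left out. With the replicate number as a block, 0 members and 0 of all genes were called. That replicate block leaves 1 residual degree of freedom, and the deviations of tumours sharing a number correlated at -0.337 and -0.248, and the labels name no shared litter or batch, so the samples share only a number. Under the block Cxcl10 differed by 0.0072 and Cxcr5 by 0.0017, against -0.69 and -0.01 as reported. Cx3cl1 turned to -0.012 with median centring and ranged from -0.35 to 0.37 when 1 array was left out. Cxcr5 ranged from -0.043 to 0.0025 over those fits. The cause of these changes was not tested. With 3 arrays per group and no detection calls, differences among dim receptors such as Cxcr5, Ccr8 and Ccr4 could not be measured well.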
